A study of Mus musculus with 21 samples.

Results

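The gene Trp53, which encodes the tumour suppressor p53, and 9 genes known as p53 targets or their close relatives were followed in skin, liver and epididymal fat of mice with and without JNK1. The 10 genes, Trp53, Cdkn1a, Mdm2, Ccng1, Sesn1, Trp53inp1, Phlda3, Gadd45a, Gadd45b and Gadd45g, were found by their gene symbols on the array, which names 27373 genes. All 10 were on the array, with 17 probes in all, and all 10 were bright enough to be tested in every comparison. The mice were male, on a C57Bl6/J background, 45 weeks old, and had been fed high fat diet between the ages of 5 and 44 weeks. The knock-out (KO) mice lack JNK1, a stress-activated kinase encoded by Mapk8, and the wild type (WT) mice, on the same diet, carry it; no lean or chow-fed group was analysed here, so the diet is shared by every sample. Each array held RNA of 1 tissue, labelled with a single dye. There were 4 KO and 3 WT arrays of skin, 3 KO and 3 WT of liver, and 4 KO and 4 WT of epididymal fat, the fat pad beside the testis and epididymis. The labels give no deletion method, no cell type restriction and no statement of which arrays share a mouse, so p-values here measure the spread between these arrays.

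p53 is a transcription factor that is held at a low level by constant degradation and is stabilised when DNA is damaged or a cell is stressed. It then switches on genes that halt the cell cycle, repair damage, lower reactive oxygen, or kill the cell, and it also switches on Mdm2, the ubiquitin ligase that marks p53 itself for degradation. Because p53 is regulated mainly as a protein, the mRNA of its targets is a common readout of its activity, although many targets also answer to other factors. JNK kinases can phosphorylate p53, and the GADD45 proteins bind a kinase that sits upstream of JNK and p38, so the genes sit on both sides of the pathway that the KO removes.

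The arrays matched their labelled tissue, with 1 exception. Levels are log2 signals relative to the 75th percentile of the same array, so 0 is the brightness that 3 in 4 probes stay under. Between 38.9% and 57.2% of probes were well above background on the 20 arrays used. The 5 skin markers averaged 8.11 to 9.15 in skin arrays, the 5 liver markers 6.47 to 7.59 in liver arrays and the 5 adipocyte markers 7.23 to 7.54 in fat arrays. Adipocyte markers were also bright in skin arrays, at 5.77 to 6.96, while skin markers averaged -4.22 to -2.83 in the fat arrays used. The scanner file of the fat array WT 2 correlated at 0.863 to 0.914 with skin arrays and at 0.725 to 0.766 with fat arrays. It also correlated at only 0.779 with its own column in the value table the authors deposited, against 0.972 to 0.992 for the other arrays. That scanner file was left out. Its column in the value table correlated at 0.953 to 0.98 with the other fat columns, so fat was tested a second time in that table with 4 KO and 4 WT columns. Mapk8 was lower in KO fat than in WT fat by a log2 difference of -2.38 (limma adjusted p = 0.0167). Its difference in liver was -2.37 (limma adjusted p = 0.216), and in skin its probe was well above background on 0 of 4 KO and 2 of 3 WT arrays, too few for a test. The skin arrays KO 1 and WT 1 were the dimmest, with 38.9% and 39.5% of probes above background, and skin WT 1 stands apart in several of the genes described here.

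**Figure D1:**
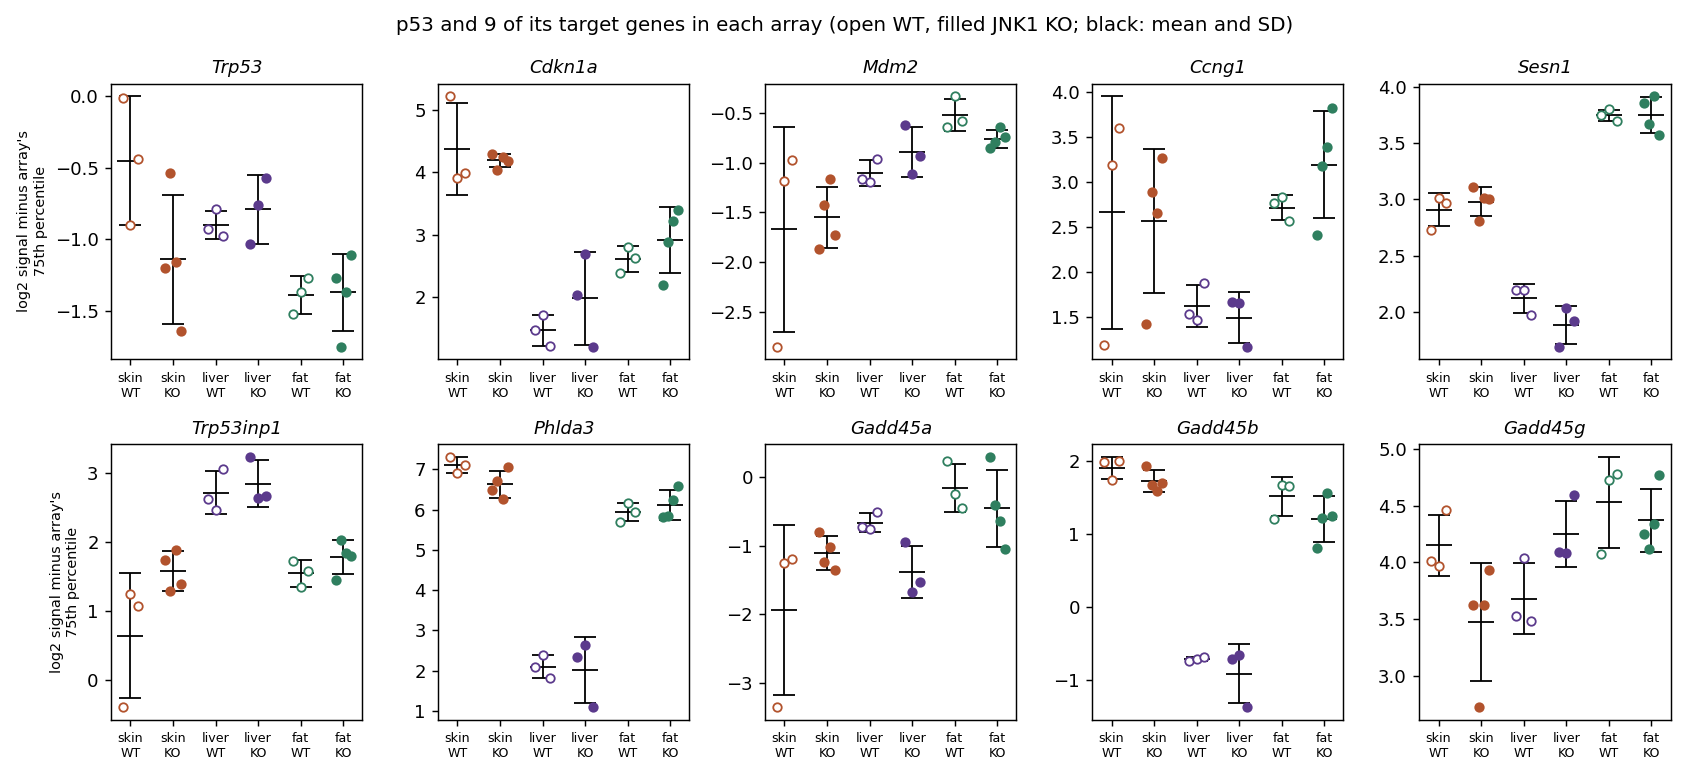
Each panel shows 1 gene, with the log2 signal relative to the array's 75th percentile on the vertical axis and the 6 groups on the horizontal axis; points are single arrays (20 in all) and black bars the mean and SD. Phlda3 and Gadd45b separate liver from skin and fat, Sesn1 separates all 3 tissues, and 1 WT skin array lies far below the other skin arrays in Gadd45a, Mdm2 and Trp53inp1.

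In WT mice, most of the 10 genes had clearly different levels in skin, liver and fat, but they did not share an order of tissues. Phlda3 and Cdkn1a were highest in skin and lowest in liver, Sesn1 was highest in fat, and Trp53inp1 was highest in liver. Between WT skin and WT liver, 6 of 10 genes passed an adjusted p of 0.05, 4 higher and 2 lower in skin, where 64.3% of all tested genes passed. Between WT skin and WT fat 7 of 10 passed, 3 higher and 4 lower in skin, beside 57.5% of all genes. Between WT liver and WT fat 6 of 10 passed, 1 higher and 5 lower in liver, beside 61.4%. These shares are near those of all genes, so the 10 genes were not set apart by how often they differed between tissues. The median difference of the 10 genes was 0.63 for skin minus liver, -0.22 for skin minus fat and -0.97 for liver minus fat, beside -0.14, -0.16 and -0.04 over all tested genes. In whole tissue, fewer cells of a type and less RNA per cell cannot be told apart.

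Trp53 itself was highest in skin and lowest in fat, within a narrow range. In WT skin the arrays gave -0.01, -0.90 and -0.44, in WT liver -0.93, -0.79 and -0.98, and in WT fat -1.52, -1.37 and -1.27. Skin was higher than fat by 0.93 (SE 0.259, limma adjusted p = 0.00565), a 1.91-fold difference with no overlap between arrays. Liver lay between them, and neither skin against liver (0.44, adjusted p = 0.14) nor liver against fat (0.49, adjusted p = 0.112) passed the test. The first passed without skin WT 2 (0.67, adjusted p = 0.0388), with array weights or over the mean of its probes. The second passed in 6 alternatives, with values from 0.43 to 0.70 and adjusted p from 0.00545 to 0.0458. Its second probe gave WT means of -0.57 in skin, -1.59 in liver and -1.47 in fat, so skin was highest by both probes and the order of liver and fat was not settled.

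The genes that regulate p53 in turn did not follow Trp53. The WT means of Mdm2 ran the opposite way, at -1.67 ± 1.03 in skin, -1.10 ± 0.13 in liver and -0.52 ± 0.16 in fat (SD, n = 3 each). Its skin level was below its fat level, with a difference of -1.15 (SE 0.342, limma adjusted p = 0.00869), while its neighbours in the order, skin and liver (-0.56) and liver and fat (-0.59), did not pass; the first passed without skin WT 3 (-0.91, adjusted p = 0.0292). The skin spread comes from WT 1, at -2.85 against -1.18 and -0.97, and on that array the Mdm2 probe was not well above background. Without it the difference between skin and fat was -0.56 (adjusted p = 0.0313). The WT liver arrays read -1.16, -1.19 and -0.96, close to skin WT 2 and WT 3. Over the 21 alternatives, skin minus liver ran from -0.91 to 0.13 for Mdm2, so its order of skin and liver was not settled. Ccng1, cyclin G1, a target that brings a phosphatase to Mdm2, had WT means of 2.66 ± 1.29 in skin, 1.62 ± 0.23 in liver and 2.71 ± 0.14 in fat (SD, n = 3 each). None of its tissue differences passed. Skin WT 1 read 1.19 beside 3.19 and 3.60, and without it the excess of skin over liver passed (1.77, limma adjusted p = 0.00217). Its lower level in liver than in fat (-1.09, adjusted p = 0.0779) passed in 5 alternatives, with values from -1.41 to -1.09 and adjusted p from 0.000789 to 0.0436. Its 2 probes disagreed: the brighter one, at chr11:40562427-40562486 in the mm9 mouse build, was lowest in WT liver, while the other, at chr11:40564413-40564472, was highest there (WT means of 1.40 for skin, 2.28 for liver and 1.46 for fat). The files give these positions without saying which exon or transcript each probe meets. Trp53inp1, a nuclear protein that raises p53 activity and takes part in autophagy, was the 1 gene of the 10 that was highest in liver. Its WT arrays read 2.62, 2.46 and 3.06 in liver, 1.72, 1.34 and 1.58 in fat, and -0.40, 1.24 and 1.07 in skin. Liver exceeded skin by 4.21-fold (skin minus liver -2.08, SE 0.334, limma adjusted p = 3.43e-05) and fat by 2.25-fold (1.17, SE 0.335, adjusted p = 0.00598), with no overlap. The lower level in skin than in fat (-0.91, adjusted p = 0.0287) was lost without skin WT 1 (-0.39, adjusted p = 0.203), without fat WT 1 (-0.82, adjusted p = 0.0872) or without fat WT 4 (-0.89, adjusted p = 0.0653).

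Cdkn1a encodes p21, the inhibitor of cyclin-dependent kinases through which p53 halts the cell cycle. It read 5.22, 3.91 and 3.99 in WT skin, 2.39, 2.81 and 2.62 in WT fat, and 1.48, 1.71 and 1.22 in WT liver. The 3 tissues did not overlap. Skin was above liver by 2.90 (SE 0.375, limma adjusted p = 2.92e-06), a 7.45-fold difference, and above fat by 1.76 (adjusted p = 0.000804). Liver was below fat, with a difference of -1.14 (adjusted p = 0.0147), and this call was lost when arrays were scaled to their median (-0.95, adjusted p = 0.0563) or without liver WT 3 (-1.01, adjusted p = 0.0525). p53 acts on such genes by binding a response element made of a pair of similar 10-base stretches, called decamers here. The promoter windows of RefSeq in build GRCm38.p6, from 250 bases before to 50 after each start, matched 9 of the 10 genes in 11 windows, and the upstream start of Cdkn1a was the only one of the 11 that held a full p53 response element (decamers up to 13 bases apart, read on both strands). Such an element was present in 0.0731% of 32851 windows. The 250 bases before that start, at chr17:29090729-29090978 on the plus strand, are printed to show it. Capitals mark the match to the pattern, in which every base had to fit, and the match begins 73 bases before the start. The 10 bases directly after the capitals depart from the decamer pattern at their first base only, so they were left out of the match. How far a site bound by p53 extends here was not tested.
Cdkn1a: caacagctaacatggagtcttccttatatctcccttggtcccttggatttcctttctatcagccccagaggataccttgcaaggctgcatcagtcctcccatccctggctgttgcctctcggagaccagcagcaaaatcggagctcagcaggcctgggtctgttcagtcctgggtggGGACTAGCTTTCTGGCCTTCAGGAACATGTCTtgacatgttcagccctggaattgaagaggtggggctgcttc

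A single p53 decamer, which 8.36% of all windows held, was found in windows of 6 genes, Cdkn1a among them. The stretches below show the other 5, each 30 bases on the gene's own strand with the decamer in capitals, so that their match to the same pattern can be compared with the paired site of Cdkn1a.
Trp53: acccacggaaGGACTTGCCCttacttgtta
Mdm2: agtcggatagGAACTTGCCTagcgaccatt
Ccng1: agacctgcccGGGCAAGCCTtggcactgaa
Sesn1: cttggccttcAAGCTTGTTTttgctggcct
Gadd45a: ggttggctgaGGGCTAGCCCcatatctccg
In build GRCm38.p6 these lie at chr11:69580274-69580303 on the plus strand for Trp53, chr10:117710925-117710954 on the minus strand for Mdm2, chr11:40755452-40755481 on the minus strand for Ccng1, chr10:41887256-41887285 on the plus strand for Sesn1, and chr6:67037428-67037457 on the minus strand for Gadd45a. No member window held the AP-1 motif TGANTCA, the site of the factor that JNK activates through JUN; 7.81% of all windows did. The TATA box motif TATAAA, read on both strands, was in windows of 3 of the genes, Trp53, Gadd45b and Gadd45g, beside 13.6% of all windows. A match is a run of letters and was not tested for binding.

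Phlda3 showed the widest range. The protein competes with the kinase AKT for membrane lipids and so restrains it. The WT arrays read 7.31, 6.90 and 7.12 in skin, 5.70, 6.16 and 5.95 in fat, and 2.10, 2.38 and 1.82 in liver. Skin exceeded liver by 5.01 (SE 0.329, limma adjusted p = 6.66e-10), a 32.2-fold difference, and fat exceeded liver by 14.3-fold (liver minus fat -3.83, adjusted p = 2.18e-08). The smaller excess of skin over fat (1.18, adjusted p = 0.00606) was lost when the arrays were normalised by quantiles (0.36, adjusted p = 0.316). Sesn1, sestrin 1, which limits reactive oxygen and growth signalling by mTORC1, was the steadiest of the genes, with SDs within groups of 0.05 to 0.17. It averaged 3.75 ± 0.05 in WT fat, 2.91 ± 0.15 in WT skin and 2.12 ± 0.13 in WT liver (SD, n = 3 each). All 3 tissues differed, by 0.79 for skin minus liver, -0.85 for skin minus fat and -1.64 for liver minus fat (limma adjusted p = 0.000172, 0.000176 and 5.75e-08), and all 3 of its probes gave the same order.

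The 3 GADD45 genes encode small stress sensors that bind the kinase MAP3K4, p21 and cell cycle proteins, and each had its own tissue pattern. Gadd45b was low in liver, at -0.74, -0.71 and -0.68 in WT arrays, against 1.98, 1.73 and 1.99 in skin and 1.20, 1.67 and 1.65 in fat. Skin exceeded liver by 6.1-fold (2.61, SE 0.213, limma adjusted p = 1.01e-08) and fat exceeded liver by 4.65-fold (liver minus fat -2.22, adjusted p = 1.01e-07), while skin and fat did not differ past the threshold (0.39, adjusted p = 0.128). Gadd45a ran the other way in skin. It read -3.36, -1.25 and -1.19 in WT skin, -0.72, -0.76 and -0.50 in WT liver, and 0.24, -0.24 and -0.45 in WT fat. Skin was below fat (-1.79, adjusted p = 0.0027) and below liver (-1.28, adjusted p = 0.0189), and on skin WT 1 its probe was not well above background. Without that array the difference to fat was -1.08 (adjusted p = 0.0111) and the difference to liver was lost (-0.56, adjusted p = 0.14). The latter was also lost without liver WT 3 (-1.20, adjusted p = 0.0546) and with the normexp background correction (-0.57, adjusted p = 0.0544). Gadd45g was bright in every tissue, with WT means of 4.53 ± 0.40 in fat, 4.15 ± 0.27 in skin and 3.68 ± 0.31 in liver. Only liver against fat passed (-0.84, adjusted p = 0.0193). That call was lost without any 1 of the arrays liver WT 1, liver WT 3, fat WT 3 or fat WT 4, with values from -0.77 to -0.72 and adjusted p from 0.0631 to 0.0773.

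**Figure D2:**
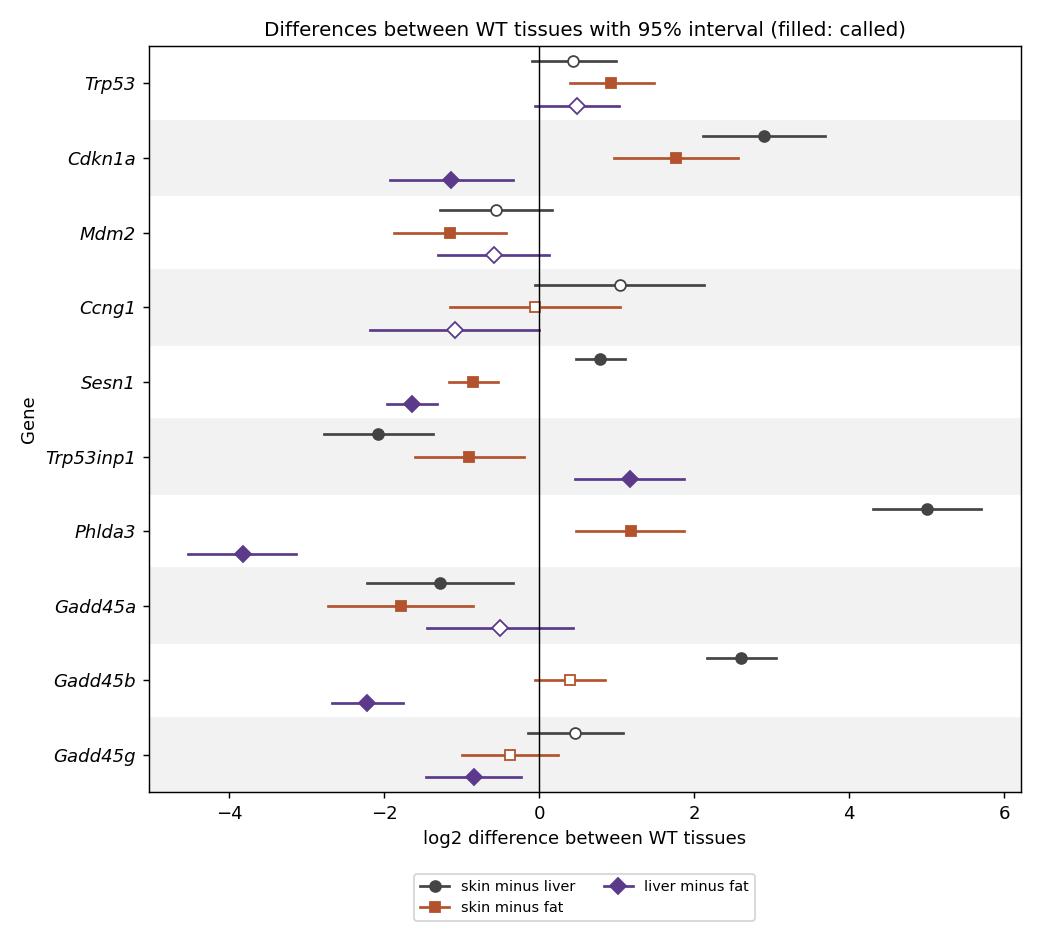
The horizontal axis gives the log2 difference between 2 WT tissues and the vertical axis the 10 genes; bars are 95% intervals and filled symbols passed an adjusted p of 0.05. Phlda3 spans the widest range, from -3.83 for liver minus fat to 5.01 for skin minus liver, and Trp53inp1 has the opposite sign to Phlda3 and Cdkn1a in all 3 comparisons.

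With JNK1 deleted, none of the 10 genes passed the test in any tissue. In skin 0 of 10 were called by limma at an adjusted p of 0.05, where 0.0148% of all tested genes were called, in liver 0 of 10 beside 0.0226%, and in fat 0 of 10 beside 0.0131%. With 4 KO and 4 WT columns of the value table, fat again gave 0 of 10 beside 0.00656%. So few genes passed over the whole array that a count of 0 says little about these 10. At an unadjusted p below 0.05 there were 1 gene in skin, 2 in liver, 0 in fat and 1 in fat in the value table, where the shares of all tested genes were 7.88%, 6.06%, 7.93% and 11.7%. The median difference of the 10 genes was -0.14 in skin, 0.02 in liver and 0.01 in fat, beside -0.10, -0.00 and 0.08 over all tested genes. The 95% intervals were wide, with a median width of 1.45 for skin, 1.03 for liver and 1.04 for fat on the log2 scale, and 0.74 in the value table. In skin and in liver, no KO array shared a slide with a WT array of the same tissue. Genotype and slide therefore cannot be told apart within these tissues.

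**Figure D3:**
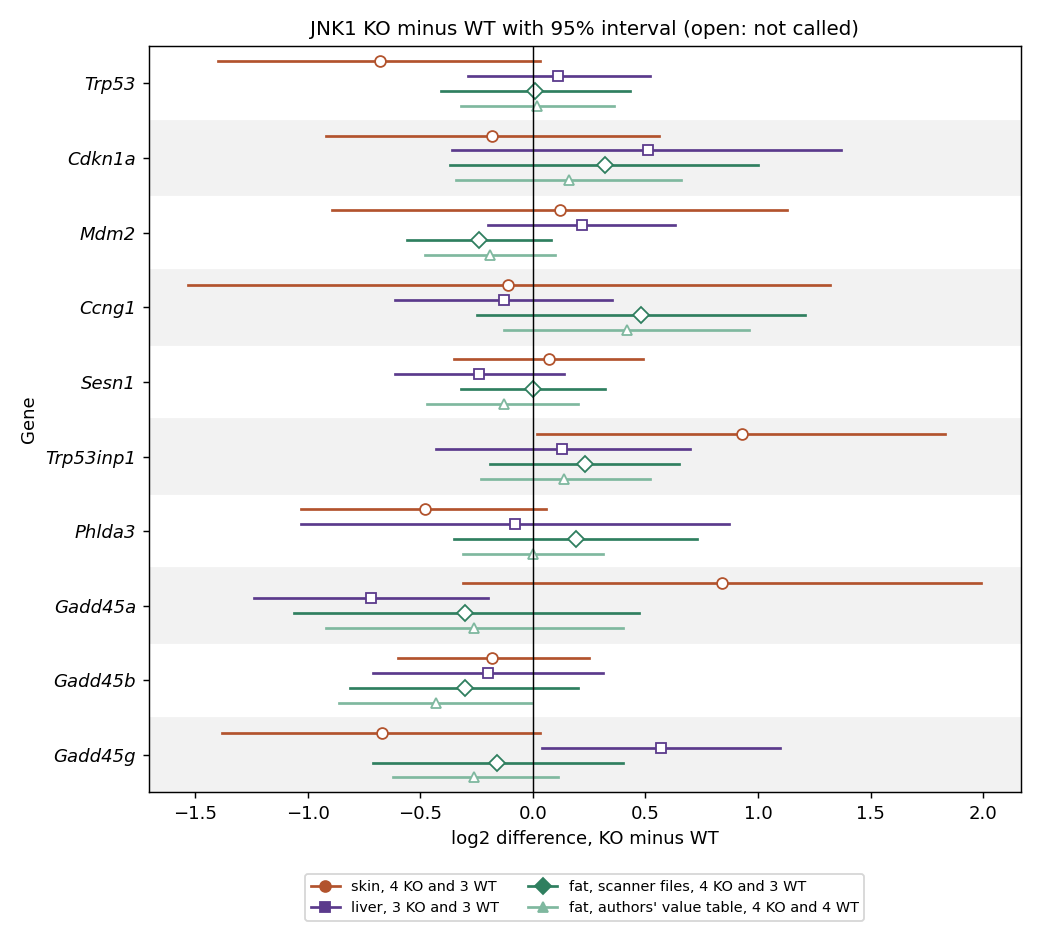
The horizontal axis gives the log2 difference of KO minus WT and the vertical axis the 10 genes; symbols are the difference in skin, liver and fat (scanner files and the authors' value table), bars the 95% interval, and all symbols are open because none was called. The widest interval is that of Ccng1 in skin, from -1.53 to 1.32, and the interval of Gadd45a lies wholly below 0 in liver while that of Gadd45g lies wholly above 0 there.

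In skin, Trp53inp1 was the gene with the largest difference. Its KO arrays read 1.73, 1.28, 1.88 and 1.38, and its WT arrays -0.40, 1.24 and 1.07. No KO array lay below a WT array, but the gap to WT 2 was small and WT 1 lay far below. The difference was 0.93 (SE 0.396, interval 0.02 to 1.83, limma adjusted p = 0.555), and without the 2 dimmest arrays it was 0.36 (SE 0.213, adjusted p = 0.724). Gadd45a also depended on the dim arrays: its KO arrays read -0.80, -1.23, -1.01 and -1.36, its difference was 0.84 (SE 0.501, adjusted p = 0.555), and it came to 0.13 (SE 0.199) without WT 1 alone and to 0.03 (SE 0.155) without both. Mdm2 went from 0.12 to -0.37 and Cdkn1a from -0.18 to 0.21 with those arrays left out, and none of these 4 differences passed either way.

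Gadd45g and Trp53 had lower mean levels in KO skin, and these differences kept their sign without the dim arrays. Gadd45g read 3.62, 2.72, 3.62 and 3.93 in KO skin and 4.01, 3.97 and 4.46 in WT skin. Every KO array lay below every WT array, but the gap between KO 4 (3.93) and WT 2 (3.97) was small. The difference was -0.67 (SE 0.307, interval -1.38 to 0.03, limma adjusted p = 0.555), and -0.79 (SE 0.374, adjusted p = 0.646) without the 2 dimmest arrays. It was called only when the arrays were weighted by their quality (-0.95, adjusted p = 0.0275), a setting under which the count of called genes over the whole array rose to 1617. Trp53 read -1.20, -0.54, -1.16 and -1.64 in KO skin against -0.01, -0.90 and -0.44, with overlap and a difference of -0.68 (SE 0.312, adjusted p = 0.555). It was -0.44 (SE 0.335, adjusted p = 0.766) without the 2 dimmest arrays, and the second Trp53 probe gave -0.26. Phlda3 had a difference of -0.48 (SE 0.239, adjusted p = 0.555). Non-overlapping groups were found for 1 of 10 genes with KO higher (Trp53inp1) and 1 with KO lower (Gadd45g) in skin, beside 3.35% and 8.16% of all genes. Hair follicle transcripts also had unlike means in the skin groups. All 8 markers of that list had higher means in KO skin, and all 8 were above background on every skin array. Mean levels over the list were 4.33 to 6.57 in KO arrays and 1.16 to 3.06 in WT arrays. All 6 skeletal muscle markers had lower means in KO skin, at 6.83 to 8.38 against 8.36 to 8.77 in WT. All 5 adipocyte markers had lower means in KO skin too (median -0.53), with list means of 5.77 to 6.68 against 6.71 to 6.96, and all 5 were above background on every skin array. None of the hair follicle, skeletal muscle or adipocyte markers was called in skin. The part of these cells in the values of Gadd45g, Trp53, Phlda3 and Trp53inp1 was not tested.

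**Figure D4:**
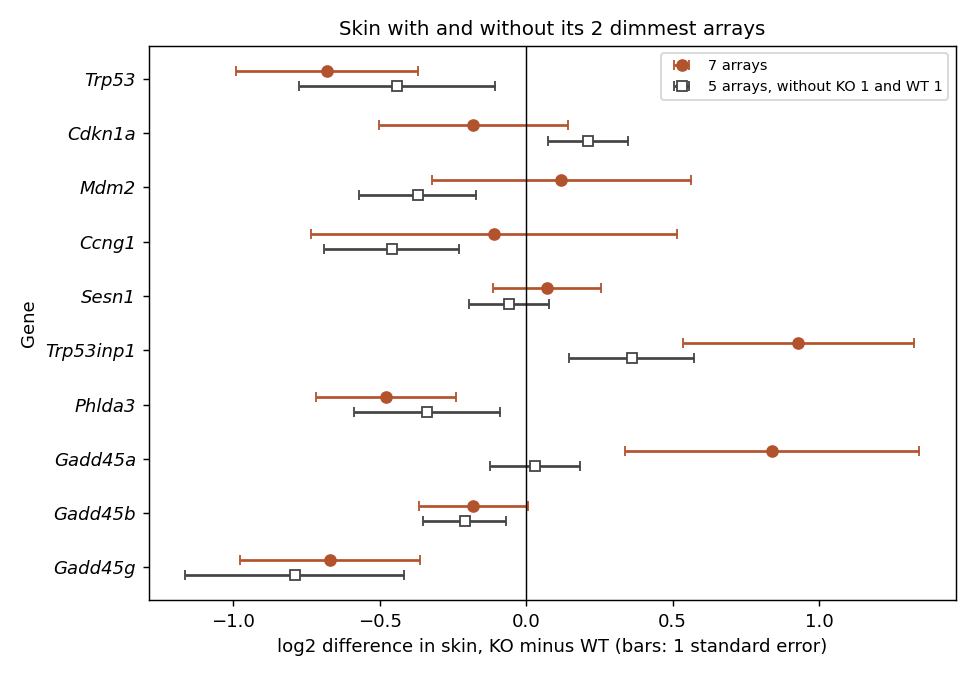
The horizontal axis gives the log2 difference of KO minus WT in skin with bars of 1 standard error and the vertical axis the 10 genes; filled circles use all 7 skin arrays and open squares leave out KO 1 and WT 1. Gadd45a moves from 0.84 to 0.03 and Trp53inp1 from 0.93 to 0.36, while Gadd45g stays at -0.67 and -0.79.

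In liver, the 2 genes with an unadjusted p below 0.05 were both GADD45 genes, and they pointed in opposite directions. Gadd45a read -0.95, -1.67 and -1.53 in KO liver and -0.72, -0.76 and -0.50 in WT liver. All KO arrays were lower, at 0.607 times the WT level on average (-0.72, SE 0.218, interval -1.24 to -0.20, limma adjusted p = 0.623). Gadd45g read 4.09, 4.08 and 4.59 in KO liver and 3.53, 4.04 and 3.48 in WT liver. All KO arrays were higher, but the gap between KO 2 (4.08) and WT 2 (4.04) was small. The Gadd45g difference was 0.57 (SE 0.225, interval 0.04 to 1.10, limma adjusted p = 0.8). These were the only non-overlapping genes of the 10 in liver, 1 in each direction, beside 4.8% of all genes with KO higher and 6.22% with KO lower. Cdkn1a had a difference of 0.51 (SE 0.366) with arrays of 2.04, 2.69 and 1.21 in KO, which spanned the WT values, and Phlda3 one of -0.08 (SE 0.401) with KO arrays of 2.35, 2.63 and 1.09. The wide KO spread of both lies between KO 3, the lowest, and KO 2, the highest.

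The liver arrays carried unequal amounts of transcripts from other tissues. The mean of the 5 skin markers was -1.69, -0.16 and -2.65 in KO 1, KO 2 and KO 3, and -3.09, -3.04 and -0.52 in WT 1, WT 2 and WT 3. The mean of the 6 skeletal muscle markers was 0.17, -1.39 and -4.34 in the KO arrays, and -1.74, -4.48 and 0.14 in the WT arrays. Cdkn1a and Phlda3 are among the genes that were higher in WT skin than in WT liver. Among the KO arrays, KO 3 was lowest in both marker lists and in both genes. Among the WT arrays, WT 3 was highest in both marker lists but lowest in Cdkn1a (1.22) and Phlda3 (1.82). With KO 1, KO 2 and WT 3 left out, which leaves 1 KO array whose spread is taken from the WT arrays, the Cdkn1a difference turned to -0.39 (limma adjusted p = 0.503) and that of Phlda3 to -1.16 (adjusted p = 0.211), while Gadd45a was at -0.79 (adjusted p = 0.236) and Gadd45g at 0.80 (adjusted p = 0.376). The part of skin or muscle RNA in these values was not tested.

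In fat, no gene had an unadjusted p below 0.05 in the scanner files. Ccng1 had the largest difference, 0.48 (SE 0.312, limma adjusted p = 0.753), with KO arrays of 2.41, 3.17, 3.38 and 3.82 around WT arrays of 2.76, 2.83 and 2.56. KO 1 lay below all WT arrays and the other 3 above them. Mdm2 read -0.85, -0.79, -0.64 and -0.74 in KO fat and -0.64, -0.33 and -0.58 in WT fat. At more decimals than are printed its groups did not overlap, with a difference of -0.24 (SE 0.137, adjusted p = 0.718); non-overlap with KO lower held for 2.9% of all genes, and for none of the 10 with KO higher, beside 6.63%. The value table did not keep that separation. Sesn1 had a difference of -0.00 (interval -0.32 to 0.32) and Trp53 one of 0.01 (interval -0.41 to 0.43) so both were centred near 0.

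In the authors' value table, which adds fat WT 2, Gadd45b was the 1 gene of the 10 with an unadjusted limma p below 0.05. Over all tested genes that share was 11.7%. Its log2 values were 9.21, 9.61, 9.91 and 9.38 in KO fat and 9.60, 10.10, 10.09 and 10.04 in WT fat. Only WT 1 reached into the range of the KO columns. The difference was -0.43 (SE 0.186, interval -0.86 to -0.01, limma adjusted p = 0.417), beside -0.30 (SE 0.217, adjusted p = 0.77) in the scanner files. There the second Gadd45b probe, well above background on all 20 arrays used, gave -0.74 in fat. Neither direction gave a non-overlapping gene among the 10 in this table, beside 4.35% of all genes with KO higher and 2.76% with KO lower. The 7 macrophage markers all had lower means in KO fat in the value table, with a median difference of -0.85. All 7 were above background on each fat array. In the scanner files 6 of them were lower and 1 was higher (median -0.39), and none was called in either source. Their part in the Gadd45b value was not tested. Ccng1 was again the gene with the largest positive difference there, 0.42 (SE 0.239, adjusted p = 0.528). Only 1 pair of fat arrays of different genotype, KO 2 and WT 4, shared a slide; within it the 10 differences of KO minus WT ran from -0.66 for Gadd45g to 0.60 for Ccng1, with Trp53 at -0.48 and Gadd45b at -0.43.

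Averaged over the 3 tissues, the KO effect also gave 0 of 10 genes, beside 0.0939% of all genes tested in every tissue. Trp53inp1 had the highest mean effect, 0.43 (SE 0.181, interval 0.05 to 0.81, limma adjusted p = 0.68), and 0.26 (SE 0.125, adjusted p = 0.8) without skin WT 1. It was made up of 0.93 in skin, 0.13 in liver and 0.23 in fat. Gadd45b had the lowest, -0.23 (SE 0.116, adjusted p = 0.779), and its difference was below 0 in each tissue, at -0.18, -0.20 and -0.30. The second Gadd45b probe gave -0.28 in skin, 0.02 in liver and -0.74 in fat. Sesn1 had the tightest interval, from -0.22 to 0.12 around -0.05.

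The differences of the KO effect between tissues were tested directly, and again 0 of 10 genes passed in each of the 3 tests. For skin minus liver 0.202% of all genes passed, for skin minus fat 0.423% and for liver minus fat 0.0564%. Gadd45a and Gadd45g, whose liver differences had opposite signs, had the widest contrasts. Gadd45g had an effect of -0.67 in skin and 0.57 in liver, a difference of -1.25 (SE 0.4, interval -2.09 to -0.40, limma adjusted p = 0.36), and was called only with array weights (-1.50, adjusted p = 0.0344). Gadd45a had 0.84 in skin and -0.72 in liver, a difference of 1.56 (SE 0.61, adjusted p = 0.547), which came to 0.75 (SE 0.427) without the 2 dimmest skin arrays. Trp53 had -0.68 in skin and 0.11 in liver, a difference of -0.80 (SE 0.353, adjusted p = 0.599). These were the 3 genes with an unadjusted p below 0.05 for skin minus liver, where 8.06% of all genes had one. There were 0 for skin minus fat, beside 11.9% of all genes, and 0 for liver minus fat, beside 4.71%.

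No gene of the wider p53 network was called in a KO comparison. Of 80 further genes on the array, in 5 lists of other p53 targets for arrest, apoptosis and DNA repair, of p53 regulators, and of the partners of p21 and GADD45, 68 were tested in skin, 66 in liver and 73 in fat. At an unadjusted p below 0.05 there were 3 in skin, 4 in liver, 4 in fat and 8 in fat in the value table, where those same shares of all genes, 7.88%, 6.06%, 7.93% and 11.7%, apply. In skin 44 of the 68 had negative and 24 positive differences, and in fat 48 of 73 had positive ones, while the medians of all genes were -0.10 in skin and 0.08 in fat. Rprm, reprimo, a p53 target linked to arrest before mitosis, had the lowest p of the negative differences in fat, -2.79 (SE 0.699, limma adjusted p = 0.49) and -1.92 in the value table (SE 0.392, adjusted p = 0.248). Its probe was well above background on only 2 of 4 KO and on 3 of 3 WT fat arrays, so these sizes include signals near background. Mdm4, the relative of Mdm2 that also restrains p53, had a difference of 0.43 in fat (SE 0.133, adjusted p = 0.559). Cdkn2c, a p18 inhibitor of cyclin D kinases, was at 0.48 in fat (adjusted p = 0.559), at 0.60 in the value table (adjusted p = 0.281) and at -0.63 in liver (adjusted p = 0.8). Among the rest, Cdkn2d (-0.66) and 9630033F20Rik, an older name of Tigar (-0.72), had the lowest p of the negative differences in skin, and Ccnb1 (1.06) and Atr (1.28) of the positive ones. The Atr difference lies in skin WT 1, at -3.74 and not well above background, beside 0.07 and 0.05 in the other WT skin arrays and -0.32 to 0.43 in KO skin. In liver Ddit4 was at 0.44, Hipk2 at 0.23 and Ccne1 at -0.62, in fat Plk3 at -0.29, and in the value table Ccnd2 at 0.53 and E2f1 at -0.55, with adjusted p from 0.313 to 0.977 for these.

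Each gene's deviation from its group mean was taken in all 20 arrays, and the 45 pairs of the 10 genes had a median Pearson r of 0.02. The pair with the lowest permutation p was Cdkn1a and Phlda3 (Pearson r = 0.75, permutation p = 0.00113, and Spearman rho = 0.71, permutation p = 0.00268). Adjusted over the 45 pairs these were 0.0508 and 0.0913, so the pair did not pass, and 0 of the 45 pairs had an adjusted p below 0.05 by Pearson's r. Left without the 2 arrays in which Cdkn1a was farthest from its median, liver KO 3 and skin WT 1, r was 0.71 over 18 arrays. Within tissues r was 0.96 over 6 liver arrays, 0.85 over 7 fat arrays and 0.31 over 7 skin arrays. Gadd45b had r = 0.71 to Cdkn1a (permutation p = 0.00869, adjusted p = 0.196) and 0.69 to Phlda3 (permutation p = 0.0235, adjusted p = 0.264); liver KO 3 was low in all 3, at deviations of -0.77, -0.93 and -0.46. Without the 3 liver arrays KO 1, KO 2 and WT 3, r between Cdkn1a and Phlda3 was 0.59. Mdm2 and Trp53inp1 had r = 0.81 (permutation p = 0.0411, adjusted p = 0.264). Without the 2 arrays farthest in Mdm2, skin WT 1 and skin WT 3, their r was 0.56. Within tissues it was 0.92 over 6 liver arrays, 0.89 over 7 skin arrays and -0.22 over 7 fat arrays.

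**Figure D5:**
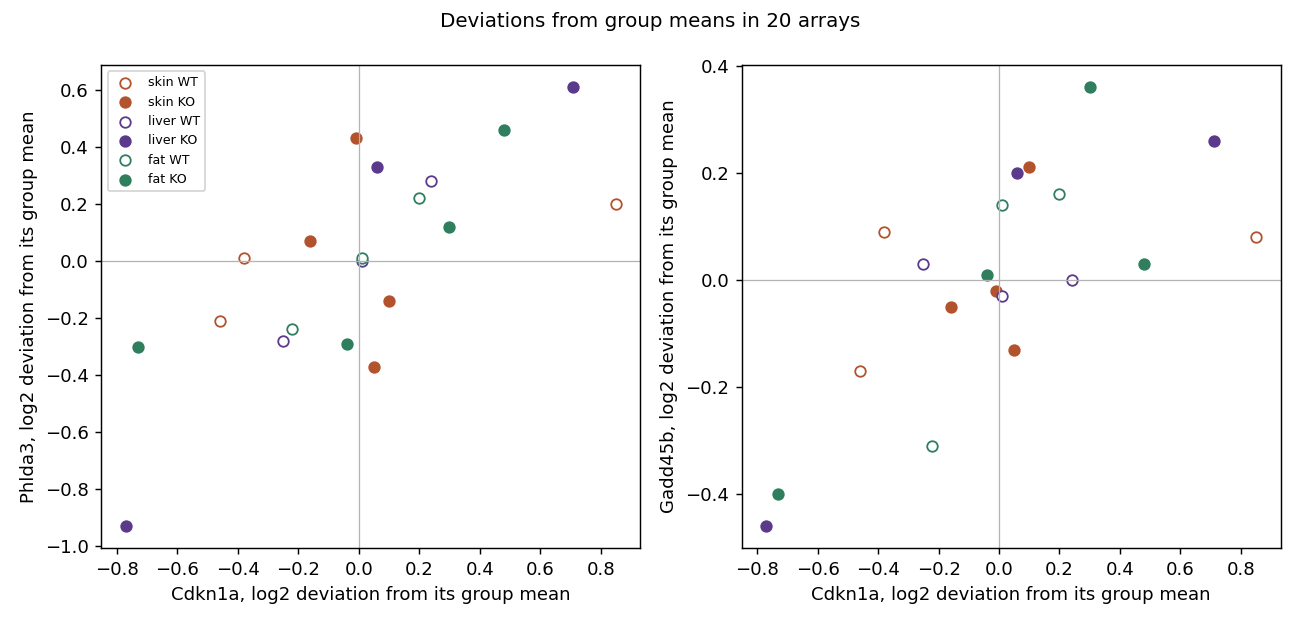
The horizontal axes give the deviation of Cdkn1a from its group mean and the vertical axes those of Phlda3 (left) and Gadd45b (right), in log2 units, for 20 arrays; open symbols are WT and filled symbols KO. Liver KO 3 is the lowest array in each gene. The highest is skin WT 1 in Cdkn1a, liver KO 2 in Phlda3 and fat KO 3 in Gadd45b. The r is 0.75 for Phlda3 and 0.71 for Gadd45b.

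Among 11486 other genes tested in all 3 tissues, the 5 whose deviations were most like those of Cdkn1a over the 20 arrays were Mapkapk3 (r = 0.93), Slc1a4 (0.92), Mvd (0.91), Cdkn2b (0.90) and Lmo4 (0.89). Mapkapk3 is a kinase activated by p38, and Cdkn2b encodes p15, another inhibitor of the cyclin D kinases. Phlda3 stood at rank 162 and Gadd45b at rank 257 in that order, while Mdm2 (-0.52) and Gadd45a (-0.73) were near its other end. These values are a description, with no test.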

How the data were processed

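RNA of skin, liver and fat was hybridised to Agilent 1-colour mouse arrays from 0.2 ug of total RNA, per the labels' protocols. Images were read with Agilent Feature Extraction 10.7.3.1 and limma is named as a tool, per the submitters' processing notes. The scanner files give a background-corrected intensity per spot, per the file headers. The value table the authors deposited holds log2 values of the same arrays; its normalization is not given in the sources used here. Its direction and scale followed the scanner values (r from 0.972 to 0.992), and its column medians ran from 5.75 to 6.

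The log2 intensity, averaged over spots without outlier marks, was set relative to the 75th percentile of each array. The brightest probe of a gene symbol was used. A gene was tested in a tissue where its probe was well above background on 3 or more arrays. KO and WT were compared within a tissue, and tissues, mean effects and differences of effects in 1 fit of 6 group means over 20 arrays. The test was limma 3.58.1 (lmFit and eBayes, R 4.3.3), two-sided, with Benjamini-Hochberg adjustment over all tested genes and a call at 0.05. It was also run on simulated data. There, a log2 change of 1 between KO and WT was recovered for 10 of 100 genes in skin, 37 in liver and 42 in fat. For a log2 change of 2 these were 61, 85 and 79 of 100. Both sizes were planted in the same run, 100 genes each. More genes passed there than in the real KO comparisons, which makes the adjustment more lenient. The simulated recovery may therefore be higher than in the data. Pairs of genes were tested by 100000 permutations of arrays within groups, two-sided. The members and lists were chosen with earlier results of these data known. All 10 members were named in every comparison; of the other lists, the rule named up to 2 genes of each sign with the lowest p per tissue, and for Cdkn1a the 5 genes with the highest r. Marker lists for skin, liver, fat, hair follicle, macrophage, proliferation, skeletal muscle and epididymis were set beside the results. Alternatives covered background correction, scaling, the filter, probes, slide, array weights, the value table and each array left out. The number of arrays limits the precision.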

Additional observations from a re-analysis of the deposited data

Results flagged for a closer look

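A single sample stood far from the others of its group in 3 of the 40 groups of 4 arrays or columns checked (10 genes in 4 sets), against about 1 in 20 that chance gives. All 3 are in fat in the authors' value table. Ccng1 was lowest in fat WT 4, at 10.88, while the other WT columns lay at 11.17, 11.17 and 11.14. Gadd45b was lowest in fat WT 1, at 9.60, beside 10.10, 10.09 and 10.04, and this is the column that overlapped the KO values. Gadd45g was highest in fat KO 4, at 13.32, beside 12.96, 12.92 and 12.99, and in the scanner files the same array was the highest of its group at 4.77.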

How the results depend on the processing

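Between 14 and 35 alternatives were run for each comparison. In the KO comparisons, 0 of 10 genes were called under every one except array weights, which called 1 in skin (Gadd45g) and 1 for skin minus liver (Gadd45g); leaving out each array gave 0 throughout. Including the scanner file of fat WT 2 left 4 of 7 calls for WT skin against WT fat. Ccng1 turned from -0.05 to 0.82 (limma adjusted p = 0.00401) for WT skin against WT fat with array weights. Of 19 calls between WT tissues, 12 held in all alternatives. With 1 array left out, calls numbered 5 to 7 for WT skin against liver, 6 to 7 for skin against fat and 4 to 6 for liver against fat. Keeping outlier spots, or leaving out the 3 liver arrays or the 2 dim skin arrays, was tried after seeing the data. Scaling to the median moved the median of all genes by -0.20 for WT skin minus liver and by 0.18 for WT liver minus fat, and quantiles by -0.13 for skin minus fat and by -0.17 for liver minus fat. Counts over all genes ranged from 0 to 1617 in skin, 0 to 27 in liver, 0 to 54 in fat, 0 to 10 in the value table, 0 to 389 for the mean effect, 0 to 335 for skin minus fat, 2 to 81 for liver minus fat and 1 to 250 for skin minus liver. The cause of these shifts was not tested. With the replicate number as a block, 0 members were called in each KO comparison and 6, 7 and 5 between tissues. The numbers did not pair KO with WT arrays within a tissue: same-numbered arrays correlated from -0.23 to 0.19 over 9 pairs, 1 of them above 0.1. Whether arrays of different tissues share a mouse was not checked. With 3 or 4 arrays a group, differences within the printed intervals could not be resolved.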

Other observations

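The proliferation markers, a list of cell cycle genes that p21 opposes, had no called member in any tissue: 5 of 5 tested had positive differences in KO skin (median 0.44), 4 of 4 negative ones in KO liver (median -0.55), and 2 of 5 positive ones in KO fat (median -0.03). Cdkn1a differed by -0.18, 0.51 and 0.32 in the same tissues. Epididymis markers were unevenly present in fat, with list means from -6.02 to -2.05 in KO and from -5.64 to -3.26 in WT arrays; their part in the fat values was not tested.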
